A study of Mus musculus with 16 samples.

Results

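The comparison described here sets mouse brain punches labelled RGS4KO against wild type (WT) punches, both from naive mice, that is, mice that received no CFA. Its members are the 8 of 16 libraries of the series whose treatment label is Naive: libraries 1 to 4, labelled WT, and libraries 5 to 8, labelled with the genotype RGS4 KO. The other 8 libraries, 4 per genotype label, carry the treatment label CFA, which the labels do not spell out, and are used below only to set the naive differences beside those in a second pair of groups. All 16 samples are labelled as ventral posterolateral thalamic nuclei. Per the series text, the study used mice with a floxed RGS4 gene and an adeno-associated virus (AAV) that carries the Cre recombinase, while the sample labels give only the KO genotype and no virus, age or strain. RNA of 2 mice went into each library, as 4 punches (12 gauge, left and right), so the spread between libraries is that between pools of animals. The sex label reads female throughout, whereas the extraction text speaks of males.

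RGS proteins speed up the hydrolysis of GTP by G protein alpha subunits and so shorten signalling from receptors coupled to Gi/o and Gq. RGS4 is a small member of this family that is expressed in neurons and acts on opioid, muscarinic and metabotropic glutamate receptor signalling. The ventral posterolateral nucleus relays touch, temperature and pain signals from the body to the somatosensory cortex; its relay neurons are glutamatergic and receive inhibition from the thalamic reticular nucleus.

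Total counts per library ranged from 36379579 to 54678830 for WT and from 18057885 to 43653243 for RGS4KO (exact two-sided permutation p of the difference = 0.0857, where 4 against 4 libraries allow no p below 0.0286). Levels are given as CPM, counts per 1000000 after TMM scaling, and a gene was called at a Benjamini-Hochberg adjusted p under 0.05 from edgeR's quasi-likelihood test over 18350 genes. Xist, the transcript of the inactive X chromosome, lay between 616 and 712 CPM in the 8 naive libraries, and the sum of 4 Y-linked genes lay between 0 and 1.3 CPM. These levels go with the female label and not with the males named in the extraction text. The first principal component of the 8 libraries, with 34.6% of the variance, separated the groups, and the second, with 21.1%, set RGS4KO library 7 (-15.9) and RGS4KO library 8 (12.5) apart from each other.

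Markers of other brain regions differed between single libraries, and in part with the genotype label. The 18 relay neuron markers (17 tested) summed to 1089 to 1152 CPM in WT and 1118 to 1252 CPM in RGS4KO, so the list was read in every library. The most abundant of them was Slc17a6. Markers of cells outside the labelled nucleus were read in every library too, as given next. How much tissue of each region the punches held was not tested. The 7 serotonin neuron markers, genes of the midbrain raphe, summed to 1200, 1421, 984 and 670 CPM in WT libraries 1 to 4 and to 364, 659, 965 and 299 CPM in RGS4KO libraries 5 to 8. They were thus present in every library and lowest in libraries 8 and 5. The 10 dopamine neuron markers summed to 445 to 810 CPM in WT and 316 to 615 CPM in RGS4KO. Of the 10, 8 had a fold change below 0 and 2 above 0, with a median log2 change of -0.52 and no call. The most abundant was Slc18a2 (254.3 and 135 CPM on average), which serotonin neurons also use. Th read 28.2 and 25.7 CPM on average (log2 -0.16, adjusted p = 0.798), and Aldh1a1 105 and 131.2 CPM (0.32, 0.266). Pitx3 was lower without overlap, at 0.679 and 0.338 CPM on average (log2 -1.11, adjusted p = 0.104). The reticular nucleus markers summed to 156, 131, 133 and 164 CPM in WT and 156, 199, 183 and 218 CPM in RGS4KO, and 6 of the 7 tested had a fold change above 0. The Edinger-Westphal and oculomotor markers were high in RGS4KO libraries 6 and 7, at 195 and 286 CPM, against 32.8 to 62.5 CPM in the other 6. Mature oligodendrocyte markers reached 12160 CPM in RGS4KO library 8 and 7178 to 9431 CPM in the others. Prl, the pituitary hormone prolactin, read 0.0547, 0.974, 6.01 and 0.299 CPM in WT and 18.3, 9.08, 23.5 and 5.78 CPM in RGS4KO (adjusted p = 0.519). In bulk punches, fewer cells of a type and less RNA per cell cannot be told apart. The part of these differences in the results below was tested for 3 of the lists only, by adding the relay neuron, oligodendrocyte and serotonin scores to the model, and leaving out pairs of libraries was tried as well; both are given beside the counts.

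**Figure D1:**
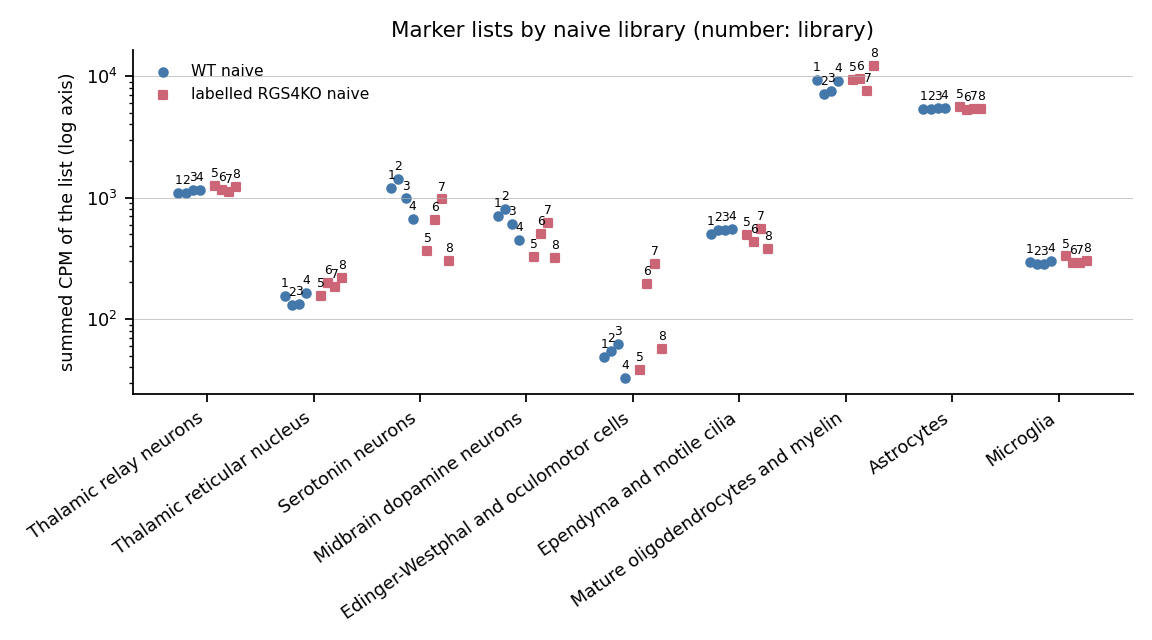
Summed CPM (log axis) of 9 marker lists in each naive library, with circles for WT, squares for libraries labelled RGS4KO and the library number above each point. Thalamic relay markers lie within 1089 to 1252 CPM in all 8, while serotonin markers run from 299 to 1421 CPM and Edinger-Westphal markers stand out in libraries 6 and 7.

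Rgs4 itself, the gene named by the genotype label, was not lower in the libraries labelled RGS4KO. It read 78.4, 85.2, 77.3 and 82.6 CPM in WT and 78, 80.5, 82.1 and 84.5 CPM in RGS4KO, and the groups overlapped. The means were 80.9 and 81.3 CPM (log2 fold change 0.01, adjusted p = 0.979; exact two-sided permutation p = 0.886), with a 95% interval of the fold of 0.935 to 1.08. A fall of the Rgs4 count to below 0.935 of WT thus lies outside the interval; counts summed over a gene do not show whether single exons are missing. For this reason the second group is called by its label throughout. Rgs4 lies on the minus strand of chromosome 1, and of the 100 other tested genes within 5 Mb of it none was called (8 at an unadjusted p under 0.05, and 1 by DESeq2).

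The 2 groups differed at 266 of 18350 genes, which is 1.45% of those tested. Of these, 128 (0.698%) were higher and 138 (0.752%) lower in RGS4KO. Most differences were small: the median absolute log2 change of the called genes was 0.40, against 0.07 over all genes tested, 81 of them differed by less than 1.2-fold and 61 by more than 2-fold (23 higher, 38 lower). For 257 of the called genes the 4 libraries of one group lay wholly above those of the other, which was so for 1327 genes, or 7.23%, of all tested. At an unadjusted p under 0.05 there were 2527 genes. The number of calls fell to 137 with the 3 marker scores in the model (97 of them among the 266), to 120 without RGS4KO libraries 6 and 7, and to 77 without RGS4KO libraries 5 and 8, the last with 2 libraries left in the group; without 1 library it lay between 135 (RGS4KO 6) and 286 (RGS4KO 7), with 148, 166 and 169 without WT 3, WT 2 and RGS4KO 8. DESeq2 called 459. Of the 63 called genes that are listed by name, 33 lost the call with the marker scores.

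**Figure D2:**
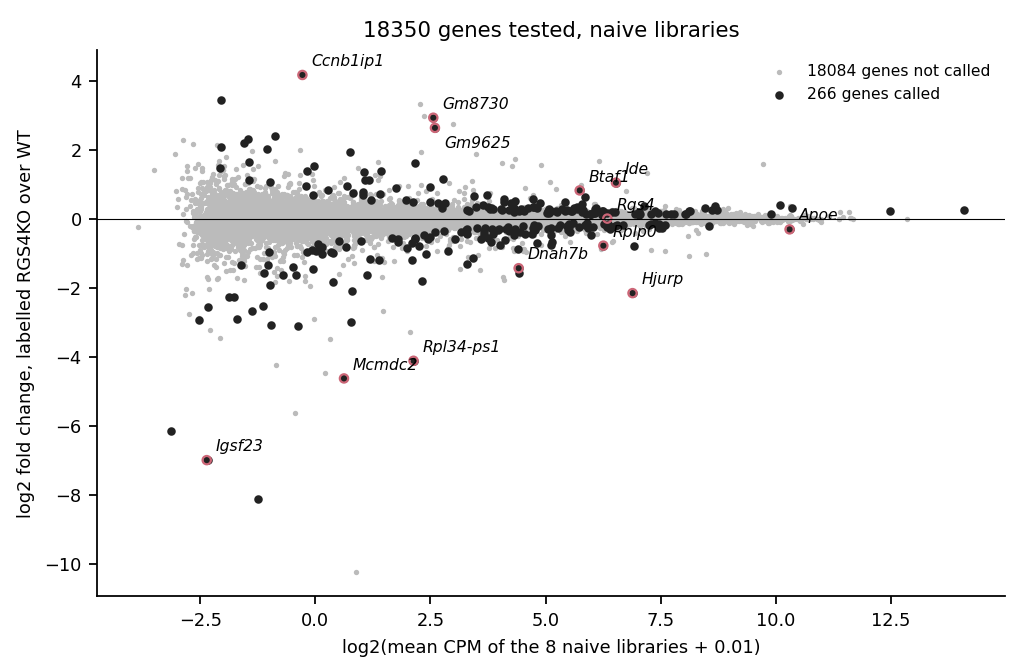
Log2 fold change of libraries labelled RGS4KO over WT for each of 18350 genes against the log2 mean CPM of the 8 naive libraries, with 266 called genes in black and named genes circled. Rgs4 lies at 0, Ide and Btaf1 stand above most genes of their level, and Hjurp, Mcmdc2 and Igsf23 stand far below.

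The called gene with the lowest p was Ide, and it was higher in RGS4KO together with 2 neighbours on chromosome 19, Btaf1 and Fgfbp3. Ide (ENSMUSG00000056999.8, chr19:37268743-37337852, minus strand, build mm10) encodes the insulin-degrading enzyme, a zinc protease that cleaves insulin and amyloid beta. Btaf1 (ENSMUSG00000040565.7, chr19:36926079-37012752, plus strand) encodes an ATPase that removes the TATA-binding protein from DNA. Fgfbp3 (ENSMUSG00000047632.10, chr19:36917550-36919615, minus strand) encodes a secreted carrier of fibroblast growth factors and starts close to Btaf1, on the other strand.

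The RefSeq promoter windows of Btaf1 and Fgfbp3, which rose together and are transcribed away from each other, are shown with that of Hjurp, the lower gene with the smallest p, described after them. Each holds 250 bases before and 50 bases after the start, in build GRCm38.p6, which is mm10; the starts lie 0, 16 and 54 bases from those of the GENCODE genes. Capitals mark matches on either strand to the letters searched, which were the GC box (GGGCGG), the CAAT box (CCAAT), the TATA box (TATAAA), the cyclic AMP response element (TGACGTCA) and the E-box (CACGTG).
Btaf1, chr19:36925829-36926128, plus strand: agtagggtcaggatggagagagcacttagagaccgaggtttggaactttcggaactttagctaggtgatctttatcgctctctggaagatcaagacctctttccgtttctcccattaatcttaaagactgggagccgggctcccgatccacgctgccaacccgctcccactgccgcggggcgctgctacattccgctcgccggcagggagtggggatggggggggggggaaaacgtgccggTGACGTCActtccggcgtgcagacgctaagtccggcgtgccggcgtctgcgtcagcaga
Fgfbp3, chr19:36919550-36919849, minus strand: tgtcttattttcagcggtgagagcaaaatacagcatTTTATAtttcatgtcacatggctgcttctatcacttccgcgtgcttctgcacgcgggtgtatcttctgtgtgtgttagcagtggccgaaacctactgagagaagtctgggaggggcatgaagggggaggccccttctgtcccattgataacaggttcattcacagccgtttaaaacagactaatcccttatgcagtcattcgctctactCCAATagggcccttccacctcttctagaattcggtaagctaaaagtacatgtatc
Hjurp, chr1:88277530-88277829, minus strand: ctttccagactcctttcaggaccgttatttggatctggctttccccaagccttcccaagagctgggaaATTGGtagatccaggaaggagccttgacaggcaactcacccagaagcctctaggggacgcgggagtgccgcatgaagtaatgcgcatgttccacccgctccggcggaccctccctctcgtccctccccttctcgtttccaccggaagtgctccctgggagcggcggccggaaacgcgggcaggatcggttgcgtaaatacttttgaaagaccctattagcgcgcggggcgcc

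The Btaf1 window held 1 cyclic AMP response element, a motif present in 1.79% of 32851 promoter windows of the same length, and 25 CG dinucleotides, against a median of 7. The Fgfbp3 window held 1 TATAAA (13.6% of windows) and 1 CCAAT (37.4%), with 9 CG dinucleotides. Its TATAAA lies on the strand opposite to the gene, near the end of the window farthest from the start. Its CCAAT lies directly before the start. Whether any of the matches acts as a promoter element was not tested. The Hjurp window held 1 CCAAT and 22 CG dinucleotides. GGGCGG (35.7% of windows) and CACGTG (7.15%) were in none of the 3, and no searched motif was shared by the windows of Btaf1 and Fgfbp3.

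Ide read 58.4, 61.2, 59.3 and 61.9 CPM in WT and 126, 126, 120 and 126 CPM in RGS4KO. All 4 RGS4KO libraries lay far above all 4 WT libraries: the fold was 2.07 (log2 1.05, SE 0.03, adjusted p = 2.7e-14). Ide overlaps the pseudogene Rpl10-ps6 on the same strand, so a part of its reads cannot be assigned with certainty.

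Btaf1 read 36.9, 38, 39.8 and 39.9 CPM in WT and 68.3, 65.9, 66.5 and 72.8 CPM in RGS4KO. This was 1.77-fold higher without overlap (log2 0.82, SE 0.04, adjusted p = 3.9e-11). Fgfbp3 read 3.77, 4.21, 3.74 and 3.83 CPM in WT and 7.95, 6.53, 7.62 and 7.49 CPM in RGS4KO, 1.91-fold higher and again without overlap (log2 0.93, SE 0.08, adjusted p = 5.2e-07). The calls of Ide, Btaf1 and Fgfbp3 held in all 18 alternatives run.

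The genes nearest to them were not called. Of 28 genes tested within 2 Mb of Ide, 6 were called. Cpeb3 and March5, which lie between Btaf1 and Ide, had log2 changes of 0.07 (adjusted p = 0.326) and 0.08 (adjusted p = 0.333), and Tnks2, on the far side of Fgfbp3, had 0.01 (adjusted p = 0.921). Farther out, Myof, which encodes the membrane repair protein myoferlin, was lower (log2 -0.58, adjusted p = 0.00597), Fra10ac1 higher (log2 0.27, adjusted p = 0.0183) and Noc3l, a ribosome biogenesis factor, lower (log2 -0.22, adjusted p = 0.0207). The call of Fra10ac1 was lost without WT 3, RGS4KO 5 or RGS4KO 8 (adjusted p 0.0545 to 0.0664) and that of Noc3l without WT 3, WT 4, RGS4KO 5 or RGS4KO 6 (0.0551 to 0.0837). With the marker scores Myof and Fra10ac1 lost the call (0.111 and 0.116). Without RGS4KO libraries 5 and 8 Myof, Fra10ac1 and Noc3l lost it (0.285, 0.285 and 0.0733). Leaving out RGS4KO libraries 6 and 7 ended the calls of Fra10ac1 and Noc3l (0.0505 and 0.132). Thinning to the shallowest library ended them too (0.124 and 0.219).

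**Figure D3:**
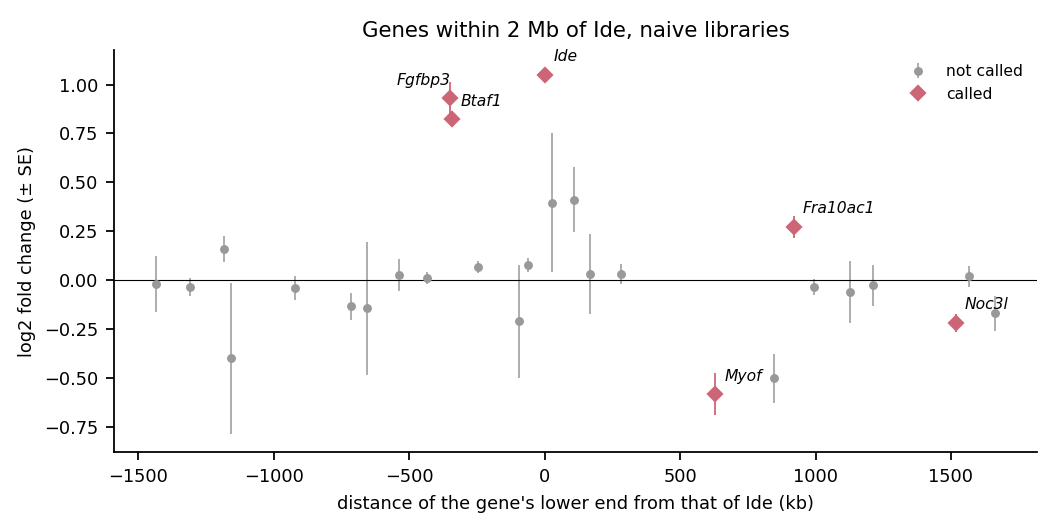
Log2 fold change (± SE) of each tested gene within 2 Mb of Ide against the distance between the lower ends of the genes in kb, with called genes as diamonds. Ide, Btaf1 and Fgfbp3 lie between 0.82 and 1.05, and Cpeb3 and March5, between Btaf1 and Ide, lie at 0.07 and 0.08.

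On chromosome 1, Hjurp and 5 genes near the start of the chromosome stood out. Hjurp (ENSMUSG00000044783.10, chr1:88262471-88277633, minus strand), the chaperone that places the centromeric histone CENP-A, read 196, 174, 199 and 206 CPM in WT and 50.1, 39.3, 41.9 and 41.7 CPM in RGS4KO. The 4 RGS4KO libraries were close to each other and far below WT, with no overlap (log2 -2.15, SE 0.07, adjusted p = 1.2e-12). Between 5 and 10 Mb, 5 of 19 tested genes were called (26.3%, against 1.45% of all genes), 3 higher and 2 lower.

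Mcmdc2, a gene of meiotic recombination in that region (chr1:9908638-9942085), was almost absent from RGS4KO. It read 2.84, 2.45, 3.18 and 3.23 CPM in WT and 0.0689, 0.0865, 0.276 and 0.104 CPM in RGS4KO (log2 -4.63, SE 0.27, adjusted p = 8.2e-10); it overlaps Snhg6 on the other strand, and the libraries do not mark strand. Adhfe1, an enzyme that oxidises gamma-hydroxybutyrate, read 19.1, 21.4, 20.9 and 18.9 CPM in WT and 12.4, 11, 13.1 and 11.2 CPM in RGS4KO (log2 -0.76, adjusted p = 1e-07).

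The other 3 called genes there were higher in RGS4KO. Vxn, which encodes vexin, a protein of neuronal differentiation, read 36.9, 35.6, 33.8 and 36 CPM in WT and 50.4, 48.9, 46.3 and 54.8 CPM in RGS4KO (log2 0.50, adjusted p = 5.2e-07). Oprk1, the kappa opioid receptor, a Gi/o-coupled receptor for dynorphin, read 23.6, 24.5, 25.1 and 21 CPM in WT and 29.3, 31.4, 28.5 and 29.5 CPM in RGS4KO (log2 0.33, SE 0.05, adjusted p = 0.00133). Neither gene's groups overlapped, and the calls of Hjurp, Mcmdc2, Adhfe1, Vxn and Oprk1 held in all 18 alternatives. Adhfe1 and Vxn both overlap 2610203C22Rik on the other strand. Sntg1, a syntrophin, rose by 0.16 (adjusted p = 0.0478), a call lost without any of 7 libraries, all but RGS4KO 5 (adjusted p 0.0605 to 0.143) and with the marker scores (0.357).

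Also on chromosome 1, 2 genes of the motile cilium were lower. Dnah7b, an inner-arm dynein heavy chain, read 28.7, 32.1, 31.7 and 31.9 CPM in WT and 11.8, 11.5, 12.6 and 10.4 CPM in RGS4KO (log2 -1.43, SE 0.09, adjusted p = 7e-08). Its near-identical copy Dnah7a read 4.73, 6.61, 6.08 and 6.47 CPM in WT and 4.53, 4.07, 4.91 and 3.87 CPM in RGS4KO, where the groups overlapped (log2 -0.47, adjusted p = 0.0368). Reads of the 2 copies may be exchanged. The call of Dnah7b held in all 18 alternatives, and that of Dnah7a was lost without WT 2, WT 3, WT 4, RGS4KO 5, RGS4KO 6 or RGS4KO 8 (adjusted p 0.0673 to 0.122) and with the marker scores (0.295).

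**Figure D4:**
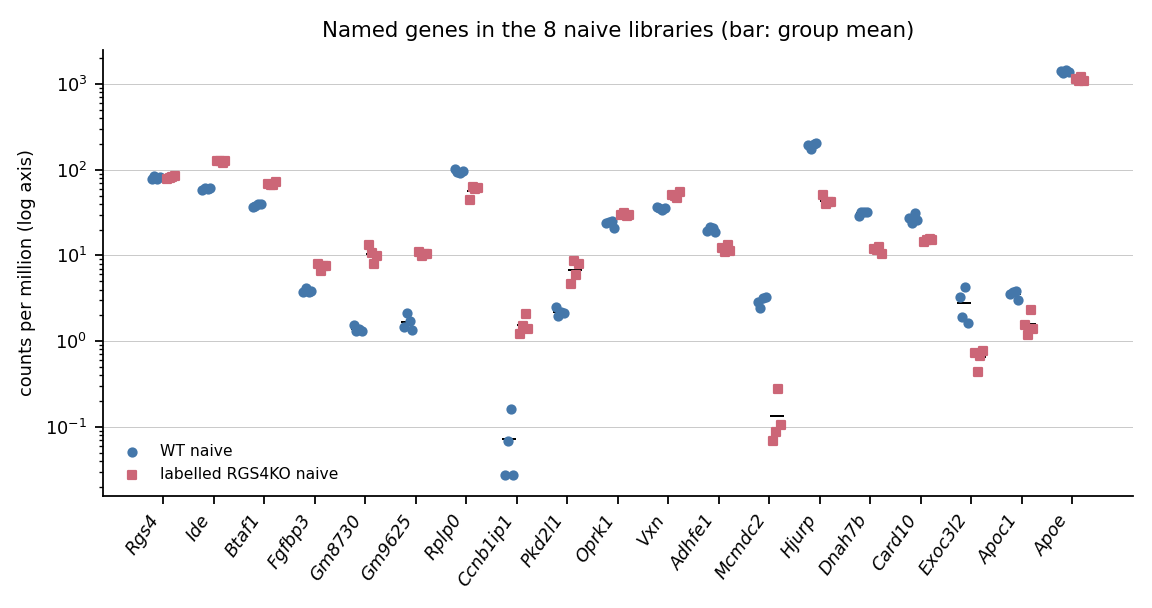
CPM (log axis) of 19 named genes in the 4 WT (circles) and 4 RGS4KO (squares) naive libraries, with bars at the group means. The groups overlap for Rgs4 and are apart for the other 18 genes.

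A ribosomal protein gene and processed copies of it changed in opposite directions. Rplp0 (chr5:115559467-115563727), the stalk protein of the large ribosomal subunit, read 102, 95.2, 91.7 and 96.6 CPM in WT and 44.3, 62.1, 58.8 and 60.9 CPM in RGS4KO (log2 -0.78, adjusted p = 0.000357). The pseudogene Gm8730 (chr8:102864845-102865798) read 1.53, 1.31, 1.38 and 1.3 CPM in WT and 13.3, 10.7, 8 and 9.72 CPM in RGS4KO (log2 2.93, adjusted p = 8.2e-10). A second copy, Gm9625 (chr13:67810246-67811200), read 1.48, 2.11, 1.73 and 1.33 CPM in WT and 11, 9.86, 10.4 and 10.5 CPM in RGS4KO (log2 2.64, adjusted p = 1.6e-10). So the gene was lower and both copies higher in every RGS4KO library.

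How near these copies are decides how far their reads can be told apart, so a stretch of the coding sequence (bases 137 to 196 from the A of the start codon of Rplp0, from the GENCODE transcripts) is shown for each, with capitals where a copy differs from the parent gene. A stretch of Rpl34 (bases 73 to 132) and its copy Rpl34-ps1 is added for the same reason.
Rplp0: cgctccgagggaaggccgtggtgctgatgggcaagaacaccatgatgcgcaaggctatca
Gm8730: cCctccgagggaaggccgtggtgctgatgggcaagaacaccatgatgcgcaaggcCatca
Gm9625: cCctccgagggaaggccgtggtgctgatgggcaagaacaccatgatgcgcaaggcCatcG
Rpl34: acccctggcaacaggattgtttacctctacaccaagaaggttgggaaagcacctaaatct
Rpl34-ps1: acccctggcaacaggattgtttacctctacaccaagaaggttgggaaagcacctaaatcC

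Over the 954 coding bases of Rplp0, Gm8730 differed at 12 and Gm9625 at 24, and Rpl34-ps1 differed from the 354 coding bases of Rpl34 at 2. The levels of the gene and these 2 copies therefore depend on which reads the authors' aligner gave a single place. The sum of Rplp0, Gm8730 and Gm9625 was 99.3 ± 4 CPM in WT and 77.4 ± 6.29 CPM in RGS4KO (SD, n = 4 each). Rplp0 has 4 near-identical copies, and Gm14165 and ENSMUSG00000116972 are not in this sum. Reads without a unique alignment (24.1% to 25.4% of listed reads in the naive libraries) are not counted either. A net loss over the gene and all its copies is therefore not shown. The calls of all 3 held in all 18 alternatives.

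Rpl34, another protein of the large subunit, and its copy ran the other way. Rpl34-ps1 read 6.64, 9.26, 10.3 and 6.91 CPM in WT and 0.46, 0.432, 0.552 and 0.488 CPM in RGS4KO (log2 -4.12, adjusted p = 0.0312), and Rpl34 had means of 45.5 ± 5.15 and 70.3 ± 2.89 CPM (log2 0.63, adjusted p = 0.0417). Their sum was 53.8 ± 3.94 CPM in WT and 70.8 ± 2.91 CPM in RGS4KO. It leaves out Gm10086, Gm10154, Gm4705 and Rpl34-ps2, which are near-identical copies of Rpl34-ps1 as well. Both calls were lost without any 1 library other than WT 1, at adjusted p 0.0505 to 0.09 for Rpl34-ps1 and 0.0667 to 0.125 for Rpl34, and that of Rpl34 also with the marker scores (0.186). Of all 888 tested pseudogenes, 32 were called, against 209 of 15403 protein-coding genes.

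A stretch of chromosome 7 held more called genes than any other window of 5 Mb. Between 15 and 20 Mb, 21 of 99 tested genes were called (21.2%), 15 lower and 6 higher. The 14 windows with 4 or more calls together held 83 calls among 861 tested genes, or 9.64%, and 151 of 534 windows held at least 1 call. The windows are a count of neighbours, with no test. The 14 were picked for their calls, so a share above the 1.45% of all genes follows from that choice. They include this stretch and the one near the start of chromosome 1.

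The chromosome 7 stretch includes the apolipoprotein cluster. Apoe, the lipid carrier secreted by astrocytes, read 1422, 1344, 1442 and 1367 CPM in WT and 1149, 1079, 1194 and 1088 CPM in RGS4KO. This was a fall by 0.31 on the log2 scale without overlap (SE 0.05, adjusted p = 0.00111). Its neighbour Apoc1 read 3.58, 3.78, 3.83 and 3.04 CPM in WT and 1.54, 1.17, 2.32 and 1.39 CPM in RGS4KO (log2 -1.19, adjusted p = 0.00322).

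Igsf23, an immunoglobulin superfamily gene at chr7:19937305-19950756, had no read in RGS4KO. It held 67 counts over the 4 WT libraries, at 0.355, 0.362, 0.545 and 0.217 CPM, and 0 in all 4 RGS4KO libraries (adjusted p = 0.00109). Against a floor of 3 counts over the RGS4KO group, its level in WT was at least 14.9-fold higher. Exoc3l2, an exocyst relative of blood vessel cells, read 3.31, 1.93, 4.28 and 1.63 CPM in WT and 0.735, 0.432, 0.662 and 0.766 CPM in RGS4KO (log2 -2.08, adjusted p = 0.00191).

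Dhx34, a helicase of nonsense-mediated decay, was lower, at 16.8 ± 1.33 and 12.4 ± 0.58 CPM (SD, n = 4 each; log2 -0.45, adjusted p = 0.00109). Gm16251, a transcript antisense to Pvr, read 0.90 ± 0.312 and 0.106 ± 0.0578 CPM (log2 -3.08, adjusted p = 0.000164). C5ar2, a complement C5a receptor chosen here after its values were seen, was among the 6 higher genes, at 0.119 ± 0.0309 and 0.543 ± 0.11 CPM (log2 2.20, adjusted p = 0.00241). The other called genes of the stretch, also chosen after their values were seen, included Sae1 (log2 -0.24), Bcam (-0.44), Kptn (-0.32), Trappc6a (-0.54) and Ercc2 (0.28). With the 3 marker scores in the model the calls of Exoc3l2 and C5ar2 were lost (adjusted p = 0.081 and 0.0717), and without RGS4KO libraries 5 and 8 those of Exoc3l2, Apoc1 and Dhx34 (0.0625, 0.149 and 0.0707); those of Apoe, Gm16251 and Igsf23 held in every alternative in which the gene was tested.

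Windows on chromosomes 5 and 6 followed. Between 105 and 110 Mb of chromosome 5, 6 of 53 tested genes were called and all 6 were lower. Idua, the lysosomal enzyme alpha-L-iduronidase, read 30.3, 30.2, 29.6 and 30.4 CPM in WT and 19.3, 23.9, 22.7 and 23.4 CPM in RGS4KO (log2 -0.44, adjusted p = 4.4e-05), and it overlaps Dgkq and Slc26a1 on the other strand. Smaller falls were seen for Tgfbr3, the TGF-beta coreceptor betaglycan (log2 -0.30, adjusted p = 0.00944), and for the zinc finger gene Zfp932 and its near-identical neighbour Gm15446 (log2 -0.31 and -0.29, adjusted p = 0.007 and 0.00781). Tgfbr3 lost the call with the marker scores (0.25), after thinning to the shallowest library (0.0565) and without RGS4KO libraries 5 and 8 (0.264). Without that pair Zfp932 and Gm15446 lost it too (0.103 each), as did Zfp932 without RGS4KO libraries 6 and 7 (0.0591) and Gm15446 after thinning (0.0623).

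Between 145 and 150 Mb of chromosome 6, 7 of 49 tested genes were called, 6 lower and 1 higher. Arntl2, a clock transcription factor related to BMAL1, read 8.18, 11.3, 10.5 and 9.35 CPM in WT and 6.36, 7.22, 6.35 and 6.2 CPM in RGS4KO (log2 -0.60, adjusted p = 0.00456). Etfrf1 (log2 -0.38, adjusted p = 0.0126), the ubiquitin ligase adaptor Klhl42 (-0.46, 0.0138) and the ribosomal pseudogene Rps4l (-0.46, 0.0184) were lower as well. These last 3 calls were lost without RGS4KO 5 (Etfrf1, 0.0523), without WT 2, WT 3 or RGS4KO 5 (Klhl42, 0.0501 to 0.0545) and without WT 2, WT 4, RGS4KO 5 or RGS4KO 8 (Rps4l, 0.0524 to 0.0695). With the marker scores all 3 were lost (0.0521, 0.216 and 0.157). Without RGS4KO libraries 5 and 8 all 3 were lost as well (0.0695, 0.166 and 0.346), and so was that of Arntl2 (0.146). Leaving out RGS4KO libraries 6 and 7 ended the calls of Etfrf1 and Klhl42 (0.072 and 0.0597). Etfrf1 overlaps another gene on the other strand.

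Outside these stretches, the genes with the lowest p included Card10 and Sfi1, both lower. Card10, a scaffold of NF-kappaB signalling on chromosome 15, read 27.5, 24.1, 31.5 and 25.6 CPM in WT and 14.4, 15, 15.4 and 15.1 CPM in RGS4KO, with all 4 RGS4KO libraries below the lowest WT library (log2 -0.87, adjusted p = 2.5e-07). Sfi1, a centrin-binding protein of the centrosome, had means of 52.8 ± 1.26 and 40.2 ± 2.12 CPM (log2 -0.39, adjusted p = 7.4e-06) and overlaps Drg1 and other genes.

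The largest rises beyond those above were in genes of low level. Ccnb1ip1, a ubiquitin ligase of meiotic crossing over, read 0.0273, 0.0679, 0.163 and 0.0272 CPM in WT and 1.22, 1.51, 2.1 and 1.39 CPM in RGS4KO (log2 4.17, SE 0.64, adjusted p = 0.00339). Pkd2l1, a channel of the TRP superfamily that marks neurons in contact with the cerebrospinal fluid, read 2.49, 1.97, 2.18 and 2.15 CPM in WT and 4.69, 8.56, 5.85 and 7.94 CPM in RGS4KO (log2 1.61, adjusted p = 0.0117). Both differences were without overlap; the first was lost with the 3 marker scores (adjusted p = 0.0962), and the second without RGS4KO libraries 6 and 7 or 5 and 8 (0.0703 and 0.064).

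Leaving aside genes with Gm or Rik names, other rises among the 12 largest were those of Slc25a41, a mitochondrial carrier (log2 1.53, adjusted p = 0.00509), the zinc finger pseudogene Zfp125 (1.36, 0.00788), Fblim1, a filamin-binding adhesion protein (1.13, 0.0126), and Cd74, the invariant chain of MHC class II (0.89, 0.00597). Cd74 read 2.65, 1.88, 2.27 and 2.66 CPM in WT and 5.12, 4.67, 3.81 and 3.66 CPM in RGS4KO, without overlap. With the 3 marker scores Slc25a41, Zfp125, Fblim1 and Cd74 lost the call (0.0717, 0.215, 0.109 and 0.0717). Leaving out RGS4KO libraries 6 and 7 ended the calls of Slc25a41, Zfp125 and Fblim1 (0.0593, 0.0585 and 0.0641). Those of Zfp125, Fblim1 and Cd74 were lost without RGS4KO libraries 5 and 8 (0.133, 0.162 and 0.095). Rn7sk, the 7SK RNA that holds back transcription elongation, had a log2 change of 1.94 (adjusted p = 0.0301), but RGS4KO library 5 alone read 5.28 CPM, against 1.18 to 2.54 CPM in the other 3, and the call was lost without any 1 WT library (0.0509 to 0.1) and with the marker scores (0.206). Fblim1 lost its call without WT 3 or RGS4KO 6 (0.0515 and 0.0524).

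Among the largest falls not yet given, Wdr63, an intermediate chain of ciliary dynein, read 11.4, 14.9, 16.8 and 13.1 CPM in WT and 5.97, 5.75, 6.51 and 4.49 CPM in RGS4KO (log2 -1.32, adjusted p = 0.00361). Pla2g4e, a calcium-dependent enzyme that makes precursors of N-acylethanolamines, read 28.2, 45.4, 28.9 and 25 CPM in WT and 11.9, 12.8, 10.7 and 7.7 CPM in RGS4KO (log2 -1.57, adjusted p = 0.0229). Dsc3, a desmosomal cadherin, had a log2 change of -1.63 (adjusted p = 0.0131), Cryba2, a crystallin, -1.83 (0.0417), and Catsperg2, a subunit of the sperm calcium channel, -1.40 (0.0385).

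Leaving out libraries ended several of these calls. Without 1 library the call was lost for Pla2g4e in 4 cases (WT 2, RGS4KO 5, RGS4KO 6 and RGS4KO 8; adjusted p 0.0529 to 0.0791) and for Dsc3 in 2 (RGS4KO 6 and RGS4KO 8; 0.0548 and 0.0562). It was lost for Cryba2 in 6 (all but WT 4 and RGS4KO 7; up to 0.129) and for Catsperg2 in 7 (all but RGS4KO 8; up to 0.146). Wdr63 kept its call without each of the 8 libraries. It lost the call with the 3 marker scores (0.084), as did Pla2g4e, Cryba2 and Catsperg2 (0.181, 0.292 and 0.422). Without RGS4KO libraries 5 and 8 Wdr63 lost it too (0.128), as did Pla2g4e, Dsc3, Cryba2 and Catsperg2 (0.282, 0.146, 0.489 and 0.0879). Leaving out RGS4KO libraries 6 and 7 also ended the calls of Pla2g4e, Dsc3, Cryba2 and Catsperg2 (0.091, 0.0996, 0.0505 and 0.165).

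The signalling lists held few calls, which the share of 1.45% over all genes would give as well. Of 20 tested RGS genes none was called (5 at an unadjusted p under 0.05, and 1 by DESeq2), with a median log2 change of 0.04 over the list against 0.00 over all genes. Of 44 G protein subunits and effectors none was called (10 unadjusted, 1 by DESeq2; median -0.04), and none of 10 metabotropic glutamate receptor and Homer genes (1 unadjusted, 0 by DESeq2; median -0.04). The lowest p among RGS genes was that of Rgs5, a gene of pericytes, at 82.8, 71.9, 75.4 and 89.5 CPM in WT and 97.5, 92.9, 86.5 and 104 CPM in RGS4KO, with overlap (log2 0.26, adjusted p = 0.144).

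Receptors and channels gave 1 call per list at most. Pkd2l1 was that of 20 TRP channels, and none of 21 neuropeptide precursors was called (5 unadjusted, 1 by DESeq2). Oprk1 was the single call among 31 tested opioid, monoamine, cannabinoid and muscarinic receptors. None of 18 ionotropic glutamate receptor genes was called (2 unadjusted, 1 by DESeq2), and none of 20 GABA genes (3 unadjusted, 0 by DESeq2).

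Of 17 tested relay neuron markers 2 were higher, where 0.698% of all genes were. Cbln1, a synapse organiser, read 16.8, 13.9, 17.6 and 15.2 CPM in WT and 19.8, 22.1, 22.1 and 24.4 CPM in RGS4KO (log2 0.47, adjusted p = 0.0322). Ntng1, the axonal adhesion protein netrin G1, had means of 62.1 ± 2.06 and 69.9 ± 3.14 CPM (log2 0.17, adjusted p = 0.0359). The call of Cbln1 was lost without WT 2, WT 4, RGS4KO 6, RGS4KO 7 or RGS4KO 8 (0.055 to 0.109) and that of Ntng1 without any 1 library but RGS4KO 7 (0.0505 to 0.117), and both were lost with the marker scores (0.215 and 0.487), which include relay neuron markers themselves. Beside these calls, the relay list summed to 1118 to 1252 CPM in RGS4KO and 1089 to 1152 CPM in WT.

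Serotonin and Edinger-Westphal markers differed in median level with no call, and libraries of 1 group differed among themselves. Tph2, the enzyme that starts serotonin synthesis, read 545, 646, 436 and 283 CPM in WT and 132, 280, 438 and 101 CPM in RGS4KO (log2 -1.02, adjusted p = 0.426). Over the 7 serotonin markers the median log2 change was -0.65, with 3 at an unadjusted p under 0.05 and 1 called by DESeq2, and the 7 tested Edinger-Westphal markers 1.29, with 3 unadjusted and 1 by DESeq2. Cartpt read 36.1, 28.2, 54.4 and 14.3 CPM in WT and 32.7, 140, 219 and 49.5 CPM in RGS4KO (adjusted p = 0.226). In the CFA libraries the list medians were 0.24 for serotonin and -1.43 for Edinger-Westphal markers.

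Among glial and ciliary lists, 2 of 22 tested ependymal and cilium genes were lower, Dnah7b and Dnah7a, where 0.752% of all genes were lower, and all 22 had a fold change below 0 and the median was -0.18. Their summed level was 505 to 548 CPM in WT and 375 to 554 CPM in RGS4KO. In the CFA libraries the median of this list was 0.09. Of 16 astrocyte markers 1 was lower, Ntsr2 (log2 -0.26, adjusted p = 0.0478), a call lost without any of the 8 libraries (0.0501 to 0.149) and with the marker scores (0.397), with a list median of -0.01. Of 20 oligodendrocyte markers 1 was higher, the adhesion protein Ninj2 (log2 1.13, adjusted p = 0.0315), lost without WT 3, RGS4KO 5, RGS4KO 6 or RGS4KO 8 (0.0502 to 0.106); the list median was 0.21. With 1 called member in lists of this size, these counts say little beyond the share over all genes. None of 15 microglial markers was called (1 unadjusted, 0 by DESeq2; median 0.07). The remaining regional and cell type lists, for the reticular nucleus (7 tested), habenula (9), hypothalamus and zona incerta (8), cortex and hippocampus (12), choroid plexus (8), oligodendrocyte precursors (10), vessels and meninges (18) and blood (6), held no call; at an unadjusted p under 0.05 they held 2, 2, 2, 2, 1, 0, 3 and 0 genes, and by DESeq2 1 in the habenula list and 1 in that of vessels.

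Response programmes gave 1 call per list at most, where 1.45% of all genes were called. At an unadjusted p under 0.05 there were 2527 of all 18350 genes. None of 32 tested immediate early genes was called (12 lower and 0 higher at an unadjusted p under 0.05, 1 by DESeq2), and their median log2 change was -0.24. They summed to 401, 448, 466 and 479 CPM in WT and 377, 400, 392 and 452 CPM in RGS4KO, with overlap. None of 17 glucocorticoid-responsive genes was called (8 lower unadjusted, 2 by DESeq2), with a median of -0.21 and sums of 744 to 833 CPM in WT and 650 to 680 CPM in RGS4KO, without overlap. Pdk4, a brake on pyruvate oxidation, came nearest, at 14.7, 17.2, 21.4 and 16.5 CPM in WT and 11.2, 13, 11 and 11.2 CPM in RGS4KO (log2 -0.59, adjusted p = 0.0508).

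Of 25 inflammation and interferon genes 1 was called, where 1.45% of all genes were. This was Oasl2, an interferon-induced gene. It read 7.99, 8.15, 6.33 and 5.52 CPM in WT and 2.69, 4.07, 4.58 and 3.06 CPM in RGS4KO (log2 -1.01, adjusted p = 0.0048), without overlap. It lost the call with the marker scores (0.121) and without RGS4KO libraries 5 and 8 (0.162). The list median was -0.15. Of 26 complement and antigen presentation genes 1 was called, C4b, a complement component with a near-identical copy, at 13.8, 17.6, 21.3 and 17.2 CPM in WT and 14.1, 9.82, 10 and 9.44 CPM in RGS4KO, with overlap (log2 -0.67, adjusted p = 0.0214). That call was lost without WT 2, WT 3, RGS4KO 6, RGS4KO 7 or RGS4KO 8 (0.0501 to 0.0816) and with the marker scores (0.176). Of 17 clock genes Bhlhe40 was higher (log2 0.17, adjusted p = 0.0385), lost without any 1 library but RGS4KO 7 (0.0526 to 0.126) and with the marker scores (0.594), and no gene of heat shock (23 tested) or of sterol and fatty acid synthesis (22 tested) was called, with 0 at an unadjusted p under 0.05 and 0 by DESeq2 in both lists.

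The CFA libraries are a second, separate set of 4 WT and 4 RGS4KO libraries, so the naive differences can be set beside differences that share no sample with them. In the fit of all 16 libraries 294 genes (1.6%) were called between the CFA groups. With each pair of groups fitted alone, 198 of 17613 genes (1.12%) were called in the naive and 300 of 17942 (1.67%) in the CFA libraries, and 83 were called in both in the same direction, 30 higher and 53 lower. This is 41.9% of the naive and 27.7% of the CFA calls, and 0 were called in opposite directions. Of 197 naive calls tested in both, 178 (90.4%) had the same sign in the CFA libraries, against 52% of all 17546 genes tested in both.

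Ide and Btaf1 had like values in both pairs. Ide read 117 to 125 CPM in RGS4KO and 59.6 to 63.8 CPM in WT after CFA (log2 0.98, adjusted p = 7e-14), and Btaf1 66.1 to 72.1 and 38.1 to 39.9 CPM (log2 0.81, adjusted p = 3.3e-11). Between 15 and 20 Mb of chromosome 7, 27 of the 99 genes were called in the CFA libraries, 19 of them also in the naive. Igsf23 held 0 reads in 3 of the 4 RGS4KO CFA libraries, with 0.0254 CPM in the other one. In contrast, the windows at 145 to 150 Mb and 80 to 85 Mb of chromosome 4, with 5 and 4 naive calls, held 0 calls in the CFA libraries; the difference between the pairs was not tested for windows.

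The difference between the genotype effects was called for 12 genes (0.0654%), 9 of them among the naive calls. Hjurp fell less in the CFA libraries, from 186 to 194 CPM in WT to 73.9 to 83.1 CPM in RGS4KO (log2 -1.26), a difference in log2 change of 0.89 (adjusted p = 0.000275). Mcmdc2 fell to 0.652 to 1.16 CPM there, from 2.53 to 3.53 CPM (log2 -1.68, difference 2.95, adjusted p = 0.000892). In both genes the RGS4KO naive libraries lay below the RGS4KO CFA libraries, while the WT ranges overlapped.

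Cbln1, higher in RGS4KO among the naive libraries, was lower in RGS4KO among the CFA libraries. It read 15.6 to 18.7 CPM in RGS4KO and 20.9 to 28.9 CPM in WT after CFA (log2 -0.45; interaction adjusted p = 0.0217). Edinger-Westphal markers, high in naive RGS4KO libraries 6 and 7, also differed in sign between the pairs, with list medians of 1.29 and -1.43. The part of the Edinger-Westphal markers in this result was not tested. Medians of the serotonin (-0.65 and 0.24), reticular nucleus (0.50 and -0.35), oligodendrocyte (0.21 and -0.17) and ependymal lists (-0.18 and 0.09) differed in sign too. Those of the relay neuron (0.03 and 0.02) and dopamine lists (-0.52 and -0.17) did not. The interaction count lay between 5 and 27 without 1 naive library: 6 without WT 4 or RGS4KO 6, 5 without RGS4KO 8, 25 without RGS4KO 5 and 27 without RGS4KO 7. With the 3 marker scores in the model 10 genes were called, only 4 of them among the 12.

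**Figure D5:**
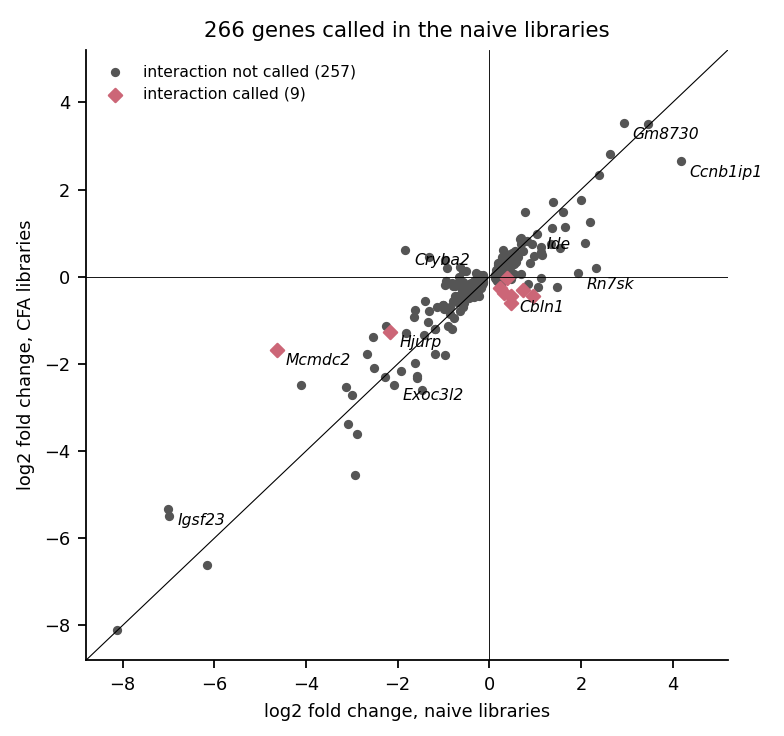
Log2 fold change of libraries labelled RGS4KO over WT in the CFA libraries against that in the naive libraries for the 266 genes called in the naive comparison, with the line of equality. The 9 genes whose interaction was called (diamonds) include Hjurp and Mcmdc2, below WT in both, and Cbln1, higher in the naive and lower in the CFA libraries.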

How the data were processed

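Per the labels' protocols, RNA was isolated with TRIzol and the TruSeq RNA version 2 kit was used; it keeps no strand information. The deposited values are raw counts of reads for each Ensembl gene, whole numbers that sum to a different total in every library. TopHat, DESeq2 and build mm10 are named in the submitters' processing notes; the 5 summary lines of each deposited count table have the form that HTSeq writes, but which annotation release and strand setting were used is not given in the sources used here. Those lines (38% to 39.7% of listed reads in the naive libraries) were left out. Symbols came from GENCODE vM21, which matched 37607 of 38924 gene IDs.

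The members and gene lists were chosen with earlier results of these data known. Groups follow the genotype and treatment labels. Counts were fitted with edgeR 4.0.16 in R 4.3.3 (filterByExpr at a minimum count of 10, TMM factors, robust quasi-likelihood test, 1 mean per group over all 16 libraries). P-values are two-sided and adjusted over 18350 genes, which hold 99.961% of counts; adjusted p-values are from this test. The common biological variation was 6.1%. Naive replicates differed by more than sampling noise (chi-square per degree of freedom 3.55 to 13.7). Named genes are the 12 largest rises and falls among calls whose groups do not overlap and whose higher mean reaches 1 CPM (names of Gm and a number or ending in Rik are used only where they are among the first 3 of a group), the 10 lowest p, up to 3 called members of each of 34 lists (otherwise the 2 lowest p), Rgs4, and 4 genes from each of the 4 windows of 5 Mb with most calls; not all are printed, and a few genes are not reported here. Outside this rule, Rplp0, Rpl34, Myof, Noc3l, Fra10ac1, Cpeb3, March5, Tnks2, Sntg1, Apoe, Igsf23, Tph2, Tnfrsf8, Prl, Xist, C5ar2 and its neighbours, and the 8 further genes with a called interaction were chosen after their values were seen. Near-identical copies are those at 95% identity or more over 200 bases or more. Alternatives were RLE and upper quartile factors, DESeq2 1.42.0, other filters, thinned counts, the naive libraries alone, 3 marker scores, each library left out, and 2 pairs of libraries left out, chosen after seeing the data. Promoter windows are from RefSeq; bases of copies were aligned from GENCODE transcripts.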

Additional observations from a re-analysis of the deposited data

Results flagged for a closer look

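In 10 of 242 groups of 4 libraries checked, the highest or lowest library stood apart from the other 3 by more than Dixon's 95% critical value for the gap as a share of the range; chance alone gives about 1 in 20. In RGS4KO, library 7 was the lowest for Ide (120 CPM), library 6 the highest for Arntl2 (7.22 CPM) and Pdk4 (13 CPM), library 5 the highest for C4b (14.1 CPM), and library 8 the highest for Alas2, a heme synthesis gene of red cells (3.24 CPM), and for Tnfrsf8 (3.0 CPM), which read at most 0.0459 CPM in the other 3 RGS4KO libraries and 4.27 to 11.4 CPM in WT. In WT, library 2 was the lowest for Dsc3 (2.04 CPM), library 1 the lowest for Dnah7b (28.7 CPM) and Zfp932 (18.8 CPM), and library 3 the highest for Prl (6.01 CPM).

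The genotype effect differed between naive and CFA libraries by the interaction test of edgeR for 12 genes, 11 of which are given here. The adjusted p was 0.000275 for Hjurp and 0.000892 for Mcmdc2, which were lower in RGS4KO in both pairs. For 8 genes the fitted effect was above 0 in the naive and below 0 in the CFA libraries: Ghsr (0.00315), the ghrelin receptor, Prss12 (0.00435), Gm11413 (0.017), Cbln1 (0.0217), Ndst4 and Pcdh9 (0.0377 each), and Slit3 and Lrrc38 (0.0402 each). Gm13339 (0.0469), a pseudogene nearly identical to mt-Nd2, was higher in naive RGS4KO libraries (1120 to 1327 CPM, against 884 to 1033 CPM in WT) with a CFA effect of -0.02 on the log2 scale. Ghsr read 4.78 to 5.79 CPM in WT and 6.24 to 9.38 CPM in RGS4KO in the naive libraries, and 9.62 to 10.8 CPM and 6.36 to 7.77 CPM after CFA.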

How the results depend on the processing

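No paired analysis was possible because no library number is shared between groups. Of the 63 named genes called, 19 kept the call in every alternative in which they were tested, and 15 lost it in 9 or more. The count of naive calls (266) was 459 with DESeq2, 137 with 3 marker scores, 120 without RGS4KO libraries 6 and 7 and 77 without RGS4KO libraries 5 and 8, and 135 to 286 without 1 library. The interaction count (12) was 87 with DESeq2, 31 with no filter on low counts and 10 with the marker scores. It was 5 after thinning to the shallowest library, 13 without RGS4KO libraries 6 and 7 and 19 without RGS4KO libraries 5 and 8. Without 1 library it was 5 to 27, and it had no value from the naive libraries alone. Of the 12, DESeq2 called 12 again, the marker scores 4, thinning 4 and each pair left out 7. Calls shared with the CFA libraries (83) were 145 with DESeq2 and 51 after thinning, and 52 to 82 without 1 library. Among the 266 calls, DESeq2 kept 260, the naive libraries alone 162, thinning 163, the marker scores 97, and the pairs left out 101 and 65. The log2 change of Rgs4 lay between -0.0139 and 0.0335 without 1 library and was negative without WT 1 (-0.0074), WT 3 (-0.0139) or RGS4KO 8 (-0.0138), with no call in any alternative. With the marker scores Slc6a4 (0.1145), Tph2 (0.125), Th (0.2072) and Otx2 (0.0136) turned positive, and Th did (0.1445) without RGS4KO libraries 5 and 8. None was called. Slc6a4 and Tph2 are members of the serotonin score, so in that fit they were adjusted for their own levels and their signs say nothing further. The cause of the other changes was not tested. The shallowest library held 18057885 counts, which limits genes under 1 CPM.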
